A study of Macaca fascicularis with 44 samples.

Results

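The genes described here are the collagen genes of the cynomolgus monkey (Macaca fascicularis), taken as every row of the count table whose gene name is COL, a number, A and a number. The rule used names only and found 41 of 21834 genes: 11 chains of fibrillar collagens, 6 of the basement membrane collagen IV, 5 of the beaded filament collagen VI, 9 of collagens that lie on the surface of fibrils, 3 each of the hexagonal network and transmembrane collagens, 1 each of the anchoring fibril and multiplexin collagens, and 2 others. COL6A4, COL9A3, COL13A1 and COL15A1 were not analysed here. The data are single-cell RNA counts from wild type embryos made by sperm injection and grown in culture from the expanded blastocyst. Cells came from 9 embryos: 2 of embryonic day (E) 16, named E16-1 and E16-2, and 1 each of E18, E20, E21, E22, E23, E24 and E25, so after E16 a day and its embryo cannot be told apart. All groups share the culture, no embryo grown in the uterus serves as a control, and the labels describe extraembryonic tissue as removed before the cells were dissociated. Libraries of 1 embryo share their source, so the embryo is the unit in each test.

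Collagens are the main structural proteins of the extracellular matrix. Each molecule is a triple helix of 3 chains, whose prolines and lysines are hydroxylated before the helix folds. In fibrillar collagens the propeptides are cut off outside the cell. In the early primate embryo, extraembryonic mesenchyme fills the space between the trophoblast and the embryo proper and becomes the core of the placental villi, a tissue rich in fibrils of collagens I and III, while collagen IV forms the sheet on which epithelia and trophoblast rest.

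The deposited table holds 3682 cells, of which 3533 cells in 42 libraries were used. Libraries 26 and 27, with 149 cells, carry a title and a time label that name different days and are kept apart. A library held 22 to 96 cells and 4393315 to 30568931 counts, and the median cell held 110457 counts. No cell name was shared between libraries. The authors' annotation gives 12 classes and 26 fine clusters. Marker lists without collagen genes had their highest summed level in the class of the same name for EVT (extravillous trophoblast), STB (syncytiotrophoblast), EPI (epiblast), PS and derivative (primitive streak), Endoderm, Mesoderm, Non-neural ectoderm and Blood cells. Of the 6 Mesoderm genes, 1 was highest in Mesoderm itself, 2 each in PS and derivative and in Neural ectoderm, and 1 in EPI. Other lists did not have their highest sum in the class of the same name. The list of EXMC (extraembryonic mesenchyme) summed to 15234 counts per 1000000 (CPM) in the class Extraembryonic Mesoderm and to 13056 in EXMC itself, the list of CTB (cytotrophoblast) was highest in EVT, that of Extraembryonic Mesoderm in PS and derivative and that of Neural ectoderm in Endoderm. CPM here are counts over the total of the summed cells, without further scaling or gene length, so levels are compared between samples and not between genes.

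Collagen genes took 1.18% of all counts, and most of that came from the extraembryonic mesenchyme. EXMC held 69.7% of the collagen counts and 28.2% of all counts, and Extraembryonic Mesoderm held 19.9% and 12.3%. Among the 41 genes, COL3A1, the chain of collagen III, took 47.5% of the collagen counts, and COL1A1 and COL1A2, the 2 chains of collagen I, took 24.9% and 14.4%, shares of counts that also depend on transcript length. The mean over embryos with at least 10 cells of a class was highest in EXMC for 16 genes, in Extraembryonic Mesoderm for 8, in Neural ectoderm and in Non-neural ectoderm for 4 each, in EPI and in Endoderm for 3 each, in PS and derivative for 2 and in EVT for 1. Only 23 of the 41 genes reached 10 CPM in their highest class, 13 of them in EXMC, 4 in Extraembryonic Mesoderm, 3 in Neural ectoderm and 1 each in Endoderm, PS and derivative and EVT. The other 18 lay below that, among them COL10A1, a collagen of growing cartilage with 80 counts in 11 cells, and COL28A1 with 23 counts in 7 cells.

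**Figure D1:**
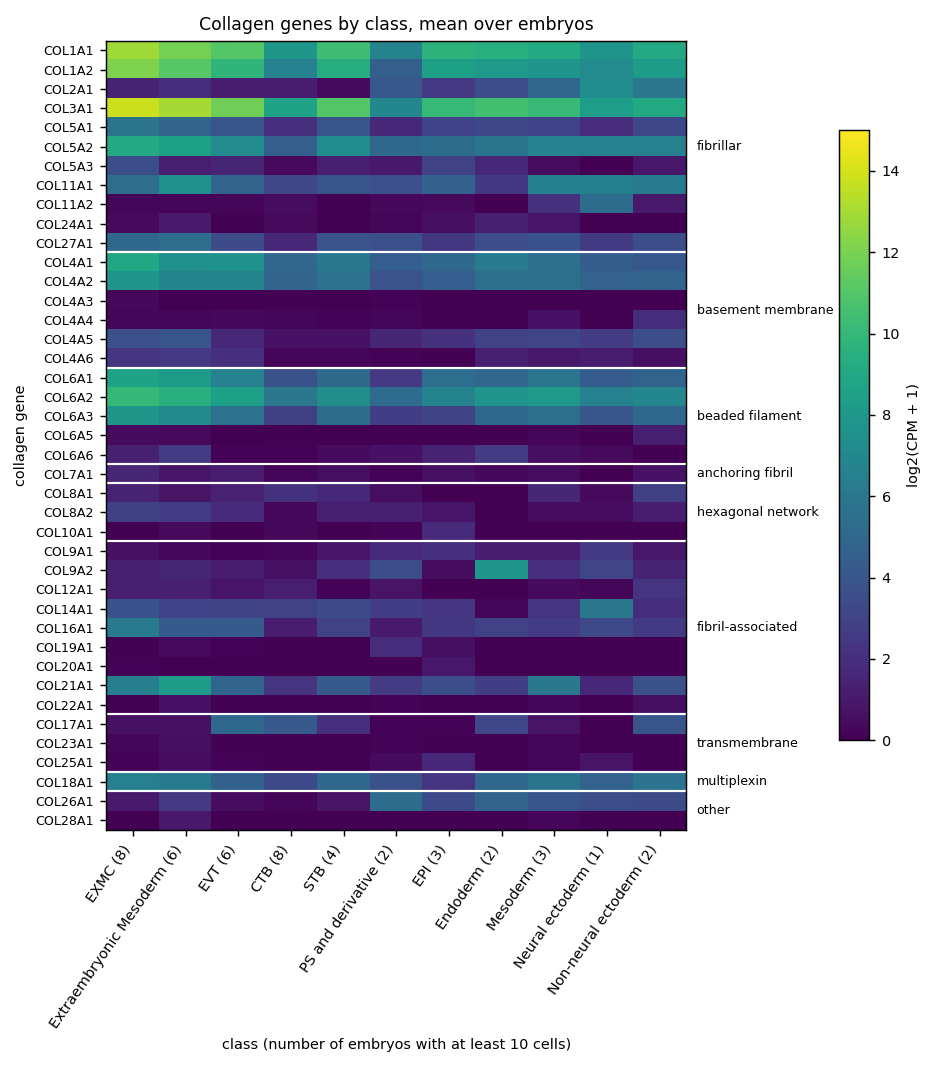
Rows are the 41 collagen genes in their families, columns the classes with the number of embryos behind each mean, and the colour is log2 of the mean CPM over embryos plus 1. EXMC and Extraembryonic Mesoderm are the brightest columns for COL1A1, COL1A2, COL3A1 and the collagen VI chains, while COL9A2 stands out in Endoderm and COL2A1, COL11A2 and COL14A1 in Neural ectoderm.

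Summed over the family, fibrillar collagens made up 2.70 ± 0.797% of the counts of EXMC (SD, n = 8 embryos), 1.47 ± 0.371% of Extraembryonic Mesoderm (n = 6), 0.669 ± 0.543% of EVT (n = 6), 0.421 ± 0.230% of STB (n = 4) and 0.0774 ± 0.0469% of CTB (n = 8). PS and derivative had the lowest share, 0.0323 ± 0.00829% (n = 2). The classes were set against the mean of the others in 1 fit of 7 classes over 8 embryos (edgeR quasi-likelihood test, embryo as a block, Benjamini-Hochberg adjusted over 14166 genes and 7 contrasts), in which 30 collagen genes passed the filter on low counts and 11 did not. Since the classes were cut from the same expression values, these p-values describe the classes and are no independent test.

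In EXMC 19 of the 30 genes were higher and none lower, where 16% of all genes were higher and 8.52% lower. In Extraembryonic Mesoderm also 19 were higher and none lower, against 12.8% and 6.88% of all genes. CTB stood at the other end, with 21 lower and 1 higher (all genes 13.4% and 14.6%), and EPI had 12 lower and 2 higher (10.1% and 9.29%). EVT had 4 higher and none lower (12.5% and 3.55%). Mesoderm had 3 higher and 1 lower (6.18% and 5.15%), and STB none higher and 2 lower (12.1% and 8.37%). The median log2 difference over the 30 genes was 2.48 in EXMC, 1.89 in Extraembryonic Mesoderm and -2.58 in CTB, beside medians over all genes of 0.09, 0.08 and -0.02. The 14 calls in EPI, which rests on 3 embryos, became 4 without E18 and 6 without E21.

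Small counts of the main fibrillar genes were found in nearly every class. COL3A1 had a count in each of the 1137 EXMC cells, in 99.4% of 520 CTB cells and in 76.8% of 228 PS and derivative cells, where median depths were 107221, 172560 and 98378 counts per cell. Its level was 14332 ± 4689 CPM in EXMC (SD, n = 8), 392 ± 230.0 in CTB (n = 8) and 121 ± 56.3 in PS and derivative (n = 2). COL1A1, COL1A2 and COL3A1 together were split 21.2 to 33.9%, 15.0 to 18.9% and 47.2 to 61.1% in EXMC over embryos, and 22.7 to 36.5%, 8.93 to 18.3% and 48.0 to 61.6% in CTB. In PS and derivative the split was 49.5, 6.96 and 43.6% in E16-1 and 38.1, 10.1 and 51.8% in E16-2. The part of free RNA from other cells in these low levels was not tested.

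EXMC and Extraembryonic Mesoderm, the neighbouring mesenchymal classes, were compared within the 6 embryos that held at least 10 cells of both (E18, E20, E21, E22, E23 and E25). Chains of collagens I, III, IV, V, VI and XVI were higher in EXMC, and COL11A1, COL21A1 and COL26A1 were higher in Extraembryonic Mesoderm. Of 26 collagen genes tested, 12 were higher in EXMC, where 2.27% of 12065 genes were, and 3 were lower, where 2.04% were (edgeR quasi-likelihood test, embryo as a block, adjusted p under 0.05). The median difference of the 26 genes was 0.89 on the log2 scale, beside 0.05 over all genes. By family, 6 of 9 fibrillar genes were higher and 1 lower, 2 of 4 collagen IV genes and 3 of 4 collagen VI genes were higher, and of 5 fibril-associated genes 1 was higher and 1 lower. The other 15 genes did not pass the filter on low counts, all 3 transmembrane collagens among them, and have no test here.

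COL1A1, the alpha 1 chain of collagen I, ranged over the 6 embryos from 5140 to 10521 CPM in EXMC (median 8442) and from 3093 to 4173 in Extraembryonic Mesoderm (median 3739). The ranges did not overlap, and EXMC was higher in 6 of 6 embryos, by 1.22 ± 0.15 (log2, SE; edgeR adjusted p = 0.000378). COL1A2, the alpha 2 chain, ranged from 3622 to 5628 CPM (median 5152) against 1270 to 3624 (median 2155). Here the lowest EXMC value, of E23, lay just under the highest of the other class, of E20. EXMC was higher in 6 of 6 embryos, by 1.34 ± 0.20 (edgeR adjusted p = 0.00152).

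COL3A1, whose collagen mixes with collagen I in soft and growing tissue, ranged from 12730 to 20175 CPM (median 16045) in EXMC and from 4100 to 12085 (median 8184) in Extraembryonic Mesoderm. No Extraembryonic Mesoderm value reached the lowest EXMC value, and the difference was 1.13 ± 0.18 (edgeR adjusted p = 0.00225). Collagen V, which starts fibrils and limits their width, differed less evenly. COL5A1 had medians of 56.0 and 28.4 CPM and COL5A2 of 567 and 375, with differences of 1.15 ± 0.28 and 0.80 ± 0.21 (edgeR adjusted p = 0.0341 and 0.0453), and both were lower in EXMC than in Extraembryonic Mesoderm in E20 alone. Each of these 2 calls was lost when any of 5 of the 6 embryos was left out (adjusted p up to 0.117 and 0.109). COL5A3, another chain of the same collagen, went from a median of 0.829 CPM (0 to 5.00) in Extraembryonic Mesoderm to 13.4 CPM (5.73 to 22.4) in EXMC without overlap. The fitted difference of 4.38 ± 0.87 (edgeR adjusted p = 0.0109) depends on the prior count, since 1 embryo was at 0, and COL5A3 had a count in 16.8% of EXMC cells and 4.36% of Extraembryonic Mesoderm cells, at median depths of 107221 and 109027 counts.

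COL11A1, a chain of collagen XI that sits inside thin fibrils and is known from cartilage, went the other way. It ranged from 37.5 to 727 CPM in Extraembryonic Mesoderm (median 81.0) and from 1.75 to 148 in EXMC (median 10.7). The ranges overlapped because both classes were high in E25, but EXMC was lower in 6 of 6 embryos, by -3.20 ± 0.36 (edgeR adjusted p = 0.000192). In the 20 Extraembryonic Mesoderm cells of E25, 19 had a count of COL11A1, and 3 cells gave 46.6% of it. COL27A1, a fibrillar collagen of developing cartilage, had medians of 35.6 CPM in EXMC and 43.1 CPM in Extraembryonic Mesoderm and did not pass (-0.25 ± 0.29, edgeR adjusted p = 0.791).

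Both main chains of collagen IV, COL4A1 and COL4A2, were higher in EXMC. COL4A1 ranged from 348 to 1049 CPM (median 486) in EXMC and from 51.1 to 352 (median 184) in Extraembryonic Mesoderm, with a difference of 1.81 ± 0.27 (edgeR adjusted p = 0.00186). COL4A2 had medians of 269 and 116 CPM, and a difference of 1.40 ± 0.24 (edgeR adjusted p = 0.00452). E20 was highest in COL4A1 in both classes and E25 lowest in Extraembryonic Mesoderm, and for both genes EXMC was higher in 6 of 6 embryos while the ranges touched. COL4A5 and COL4A6, which form the collagen IV of smooth muscle and some epithelia, were low, with means of 12.5 and 4.07 CPM in EXMC and 13.6 and 4.71 CPM in Extraembryonic Mesoderm, and did not pass (edgeR adjusted p = 0.956 and 0.747).

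The collagen VI chains COL6A1, COL6A2 and COL6A3, which assemble into beaded filaments around cells, were all higher in EXMC. COL6A1 ranged from 428 to 565 CPM there (median 488) and from 183 to 406 in Extraembryonic Mesoderm (median 285), without overlap, and differed by 0.93 ± 0.19 (edgeR adjusted p = 0.0109). COL6A2 had medians of 1064 and 609 CPM and differed by 0.85 ± 0.16 (edgeR adjusted p = 0.0081). COL6A3 had medians of 257 and 157 CPM and differed by 1.09 ± 0.26 (edgeR adjusted p = 0.0295), a call lost without E20, E22 or E25 (adjusted p up to 0.0923). All 3 were higher in EXMC in 6 of 6 embryos.

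Among the collagens that attach to fibrils, COL16A1 and COL21A1 changed in opposite directions. COL16A1 ranged from 58.5 to 126 CPM (median 78.2) in EXMC and from 7.08 to 24.7 (median 18.3) in Extraembryonic Mesoderm. COL21A1 ranged from 10.1 to 206 CPM (median 102) in EXMC and from 220 to 557 (median 267) in Extraembryonic Mesoderm. Neither pair of ranges overlapped, and the differences were 2.33 ± 0.27 for COL16A1 and -1.81 ± 0.35 for COL21A1 (edgeR adjusted p = 0.000278 and 0.00933). COL14A1, which coats fibrils in tendon and skin, had medians of 15.3 and 2.80 CPM and was higher in EXMC in 5 of 6 embryos, but did not pass (2.19 ± 0.68, edgeR adjusted p = 0.0991). The multiplexin COL18A1, source of endostatin and a part of basement membranes, had medians of 98.0 and 88.3 CPM and did not pass (0.79 ± 0.41, edgeR adjusted p = 0.406). COL26A1 was low in both classes, with at most 1.45 CPM in EXMC and 0.644 to 7.51 CPM in Extraembryonic Mesoderm, and its call (-3.73 ± 0.95, edgeR adjusted p = 0.043) was lost without any of 5 of the 6 embryos (adjusted p up to 0.147).

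With at least 20 cells per sum, which leaves 4 embryos, 7 collagen genes were higher and 2 lower, and COL5A1, COL5A2, COL5A3, COL6A2 and COL6A3 no longer passed (edgeR adjusted p = 0.167, 0.162, 0.0911, 0.0701 and 0.116). In the 6 embryos the mesenchyme marker list ran from 11363 to 17271 CPM in EXMC and from 10503 to 20610 in Extraembryonic Mesoderm with none of its 9 genes at 0. The 7 markers of Extraembryonic Mesoderm summed to 253 to 369 CPM in EXMC (median 305) and 366 to 796 in Extraembryonic Mesoderm (median 583). They were higher there in each embryo, with at most 1 of them at 0 in either class. The 5 markers of Non-neural ectoderm separated the classes, with 120 to 370.2 CPM in EXMC (median 238) and 693 to 2081 in Extraembryonic Mesoderm (median 1212), and at most 3 and 1 of them at 0. The part of these lists in the differences was not tested.

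**Figure D2:**
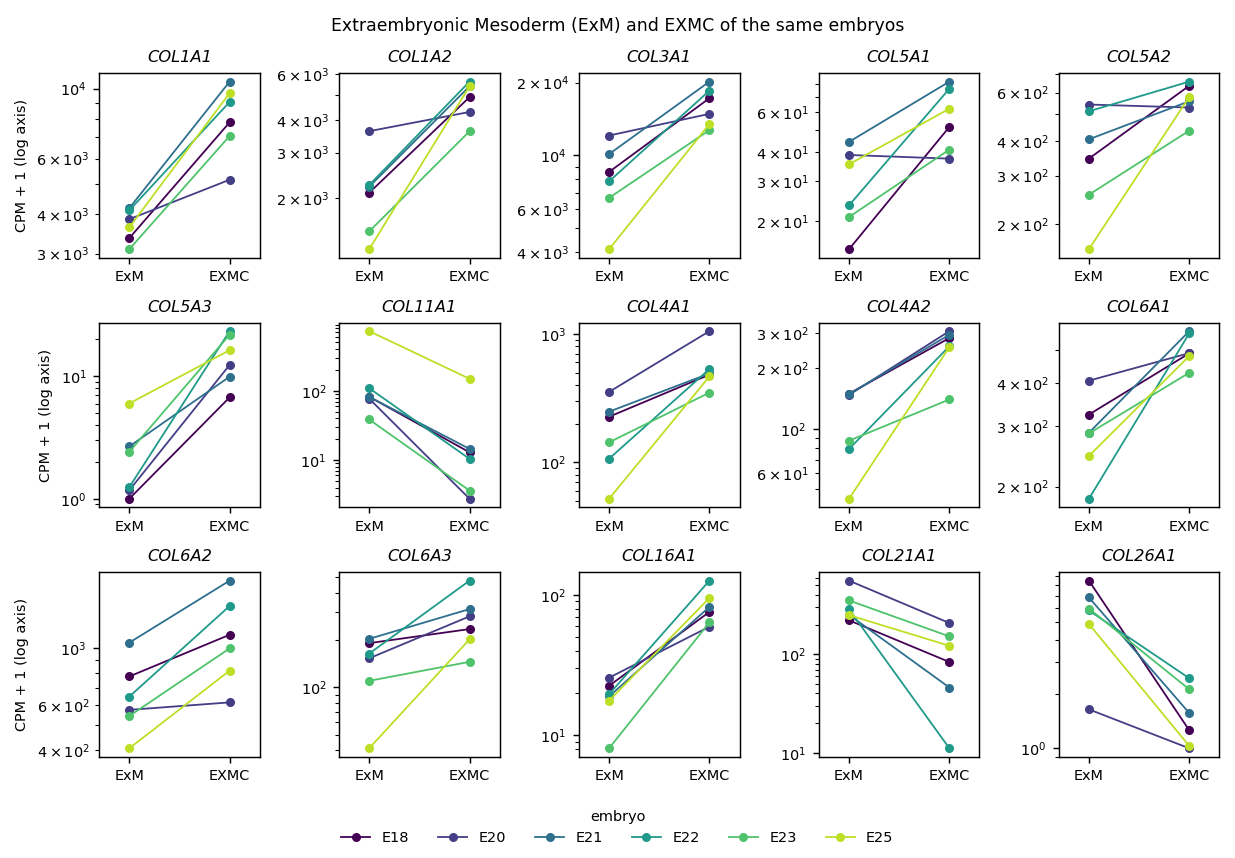
Each panel is 1 of the 15 collagen genes that differed between the classes, each line 1 of 6 embryos, and the y axis is CPM plus 1 on a log axis of its own. Lines run upward to EXMC for 12 genes, with E20 running slightly downward for COL5A1 and COL5A2, and downward for COL11A1, COL21A1 and COL26A1.

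Genes that make, export, link and bind collagen were listed by role and read in the same comparison. Of 16 tested genes of hydroxylation and folding 3 were higher in EXMC and none lower, of 9 genes of export and propeptide cleavage 1 was higher, of 5 crosslinking genes 2, of 10 receptors 3 and of 6 breakdown genes 1, with none lower in any list. Their median log2 differences were 0.53, 0.36, 1.03, 0.55 and 0.16, beside 0.05 over all genes. PLOD2, which hydroxylates lysines of the collagen ends for stable crosslinks, was at 1129 ± 331 CPM (SD, n = 6) in EXMC and 382 ± 211 in Extraembryonic Mesoderm, a difference of 1.81 ± 0.24 (edgeR adjusted p = 0.000716). FKBP10, a chaperone that works with it, and P3H4, a partner of lysine hydroxylation, differed by 0.93 ± 0.17 and 0.76 ± 0.16 (edgeR adjusted p = 0.00688 and 0.0157).

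The propeptide cleavage enhancer PCOLCE was at 1547 ± 428 CPM in EXMC and 808 ± 449 in Extraembryonic Mesoderm (1.14 ± 0.21, edgeR adjusted p = 0.00775). LOX, the lysyl oxidase that starts crosslinks, was at 193 ± 145 and 82.1 ± 67.1 CPM and higher in EXMC in 6 of 6 embryos (1.37 ± 0.24, edgeR adjusted p = 0.00566), and its relative LOXL2 differed by 1.03 ± 0.21 (edgeR adjusted p = 0.0147). The P3H4 call was lost without E21 and the LOXL2 call without E18 or E20 (adjusted p up to 0.0618). With at least 20 cells per sum FKBP10, P3H4, LOXL2 and the receptor MRC2 no longer passed (edgeR adjusted p = 0.0564, 0.101, 0.0683 and 0.168). The integrin alpha 1 chain ITGA1, a collagen receptor, was at 223 ± 30.2 and 93.9 ± 37.0 CPM (1.44 ± 0.26, edgeR adjusted p = 0.00628). Its beta 1 partner ITGB1 and the uptake receptor MRC2 differed by 0.67 ± 0.15 and 0.62 ± 0.16 (edgeR adjusted p = 0.0249 and 0.0434), calls that held in 1 of 6 fits that each left out 1 embryo (adjusted p up to 0.108 and 0.179). FAP, a protease of activated fibroblasts that cuts collagen fragments, had the largest difference of these genes, 300.1 ± 119 against 60.3 ± 48.9 CPM (2.80 ± 0.30, edgeR adjusted p = 0.000155). The chaperone SERPINH1, at 1560 ± 844 and 1300 ± 642 CPM, the prolyl hydroxylase P4HA1, at 785 ± 436 and 637 ± 296, and the protease MMP2, at 281 ± 76.3 and 262 ± 112, did not pass.

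**Figure D3:**
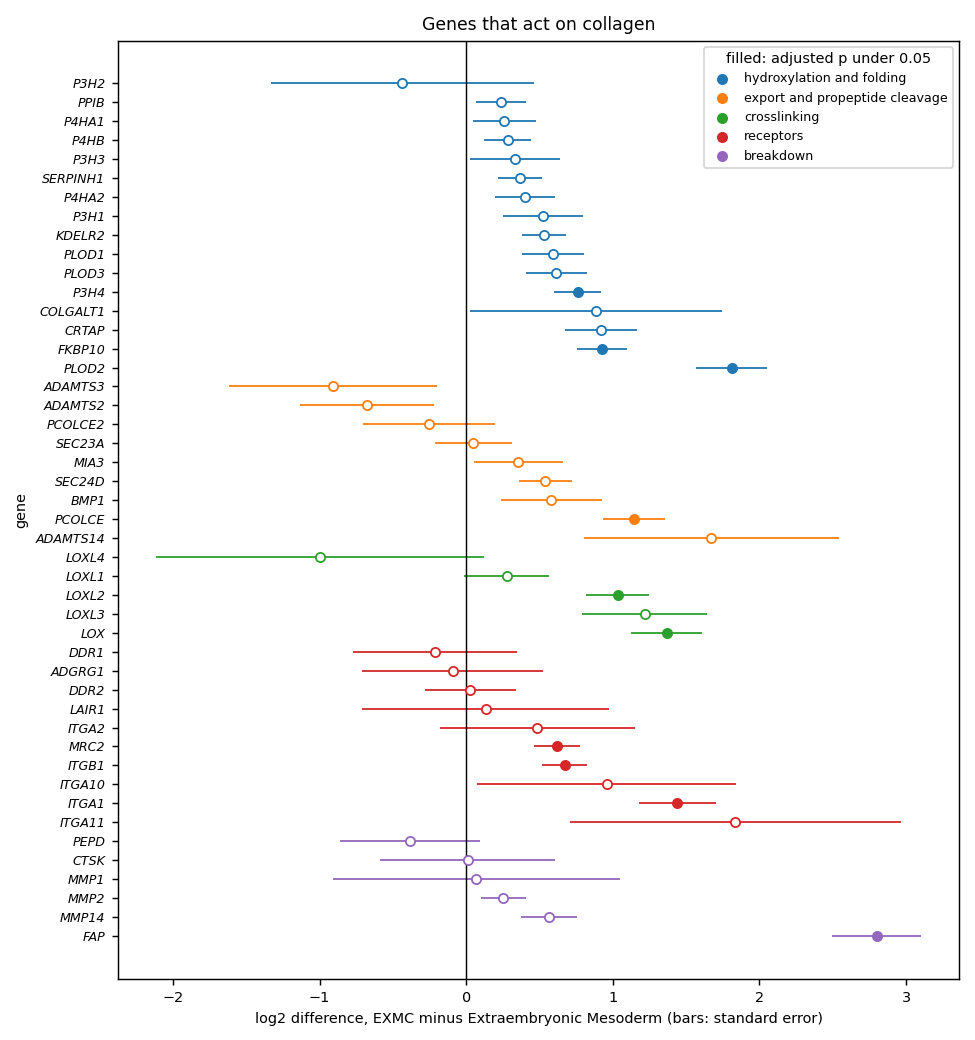
Points are the log2 difference of EXMC minus Extraembryonic Mesoderm over 6 embryos for 46 genes of 5 lists, bars are standard errors, and filled points passed adjusted p under 0.05. All 10 filled points lie right of 0, from MRC2 at 0.62 to FAP at 2.80.

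Fine clusters divide the mesenchyme further. The clusters were cut from the same values, so their levels are a description of pooled cells, with exact Poisson 95% intervals of counting error only. The 7 clusters of EXMC fell into 6 with collagen sums of 26603 to 40836 CPM (clusters 1, 4, 9, 10, 11 and 21) and cluster 6 with 11584 CPM, under the 21518 CPM of the Extraembryonic Mesoderm cluster 5. Cluster 1 was highest in COL3A1, with 21046 CPM, and in COL4A1, with 699 CPM. Cluster 9 was highest in COL5A3, with 19.5 CPM (17.5 to 21.6), and cluster 4 in COL14A1, with 38.8 CPM (36.2 to 41.5).

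Cluster 6 was almost wholly from E16-2, with 184 of its 200 cells. It was low in COL1A1 (3134 CPM), COL3A1 (4860 CPM), COL6A1 (103 CPM) and COL16A1 (13.4 CPM), but not in COL5A2 (572 CPM) or COL18A1 (100.4 CPM), which lay within the range of the other EXMC clusters. Its PS marker list summed to 170 CPM and its EPI list to 88.8, beside at most 4.43 and 39.02 CPM in the other EXMC clusters, and their part in these levels was not tested. The 11 cells of cluster 6 from E21 had 3602 CPM of COL1A1 and 5522 of COL3A1, beside 11769 and 24134 CPM in the 110 cells of cluster 1 from the same embryo. COL11A1 was split among EXMC clusters, with 105, 128 and 99.7 CPM in clusters 4, 11 and 6, 31 CPM in cluster 10 and 2.38 to 10.1 CPM in the other 3. Clusters 4 and 11 held mostly cells of E25 (156 of 224 and 95 of 139), and within E18 they had 2.66 and 24.8 CPM of COL11A1. The 10 cells of cluster 11 from E24 had 90.5 CPM.

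Of the Extraembryonic Mesoderm clusters, 8 was lower in collagens I and III than cluster 5 and higher in COL11A1. COL3A1 was at 1817 and 9817 CPM in clusters 8 and 5 of E18, at 7424 and 11530 in E21 and at 5197 and 14189 in E22. COL11A1 was at 242 and 26.7 CPM in E18, at 120.0 and 60.5 in E21 and at 127 and 62.3 in E22. Both orders held in all 3 embryos with at least 10 cells of each cluster. COL21A1 had no such order, with 204 and 227 CPM in E18, 284 and 233 in E21 and 367 and 59.0 in E22. Cluster 22, with 71 of its 74 cells from E20, had the highest COL21A1 (619 CPM) and COL18A1 (142 CPM) of the mesenchymal clusters. It also had 27.1 CPM of COL6A6 (24.9 to 29.5), a collagen VI chain with at most 3.55 CPM in the other 9 clusters, although only 12 of the 74 cells had a count and 3 cells gave 53.6% of it.

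**Figure D4:**
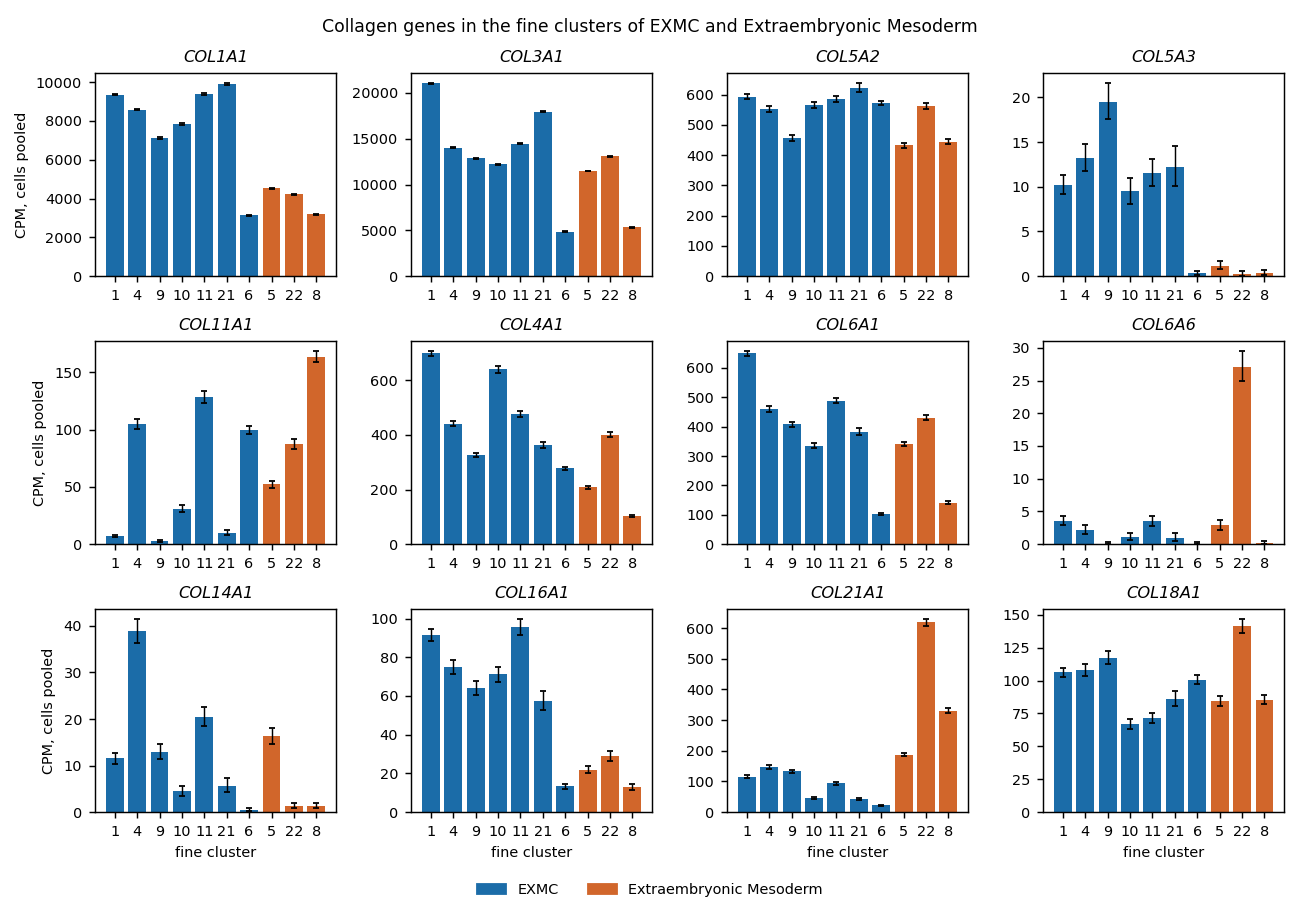
Bars are CPM of the pooled cells of the 10 fine clusters of EXMC (blue) and Extraembryonic Mesoderm (orange), error bars are exact Poisson 95% intervals of counting error, and each panel has its own axis from 0. Cluster 6 sits near the orange bars for COL1A1, COL3A1 and COL16A1, and cluster 22 stands out in COL6A6 and COL21A1.

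In trophoblast, EVT was higher than the mean of the other classes in COL4A1, COL4A2, COL4A6 and COL17A1, and CTB in COL17A1. COL17A1 is the transmembrane collagen of hemidesmosomes that anchors epithelia. For COL4A1 and COL4A2 the means of EXMC, 503 and 237 CPM, lay above those of EVT, 207 and 105 CPM. Extraembryonic Mesoderm also had higher means than EVT in COL4A2 and COL4A6, 109 and 4.71 CPM, and EXMC in COL4A6, 3.71 CPM. COL4A1 in EVT ranged over 6 embryos from 158 to 304 CPM (median 196) and COL4A2 from 74.6 to 144 (median 99.6), while CTB had 12.9 to 53.4 CPM (median 30.7) and 9.32 to 52.7 (median 29.2). No EVT value overlapped CTB for either gene. Against the other classes EVT was higher by 1.49 ± 0.27 for COL4A1 and 1.05 ± 0.27 for COL4A2 (edgeR adjusted p = 0.000113 and 0.00512), and CTB was lower by -1.84 ± 0.29 and -1.32 ± 0.28 (edgeR adjusted p = 1.97e-05 and 0.000825). Within EVT the pooled fine cluster 23 had 481 CPM of COL4A1, cluster 19, of E20 alone, 227 CPM and cluster 13 143 CPM, with 3 of 61 cells giving 47.2% of the counts in cluster 23.

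COL17A1 was at 2.27, 12.5, 38.9, 0, 79.3 and 50.5 CPM in EVT of E18, E20, E21, E23, E24 and E25, and at 0 to 42.2 CPM in CTB (median 14.5). The 146 EVT cells of E23 had no count, so the spread over embryos was wide. EVT and CTB were both higher than the mean of the other classes, by 4.00 ± 0.61 and 4.21 ± 0.57 (edgeR adjusted p = 9.95e-06 and 1.85e-06). EXMC and Extraembryonic Mesoderm had at most 2.66 CPM. Non-neural ectoderm, outside that fit, had 24.4 CPM in E22 and 2.96 in E23. With libraries as the unit the EVT call was lost (2.52, edgeR adjusted p = 0.394). In EVT the cell with the most COL17A1 counts gave 18.9% of them. Counts of COL17A1 were found in 13.4% of EVT cells and 18.8% of CTB cells, against 2.81% of EXMC cells, at median depths of 69619, 172560 and 107221 counts. COL4A6 was called in EVT too (2.72 ± 0.98, edgeR adjusted p = 0.0487), but it was at 15.4 CPM in E21 and at most 2.19 in the other 5 embryos. COL8A1, of the hexagonal networks under endothelia and in the cornea, was at 25.4 CPM in CTB of E23 and at most 3.04 in the other 7 embryos. It lay in fine cluster 14, with 25.1 CPM and counts in 61 of 125 cells.

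Collagens I and III in EVT differed widely between embryos. The collagen sum of EVT was 1476 CPM in E18, 1665 in E20, 15795 in E21, 5667 in E23, 7945 in E24 and 13207 in E25. Mesenchyme markers outside the collagens moved with it, with a list sum of 547, 938, 4854, 2439, 3888 and 6663 CPM in the same order and 1 of the 9 genes (TWIST1) at 0 in E23 only. EVT markers summed to 5720, 4969, 2030, 2911, 4719 and 1335 CPM, with 1 of the 4 genes (ASCL2) at 0 in E21 only. Fine cluster 18, with 17474 CPM of collagen genes, had 8455 CPM of the mesenchyme list and 658 CPM of the EVT list, and fine cluster 7, mostly of E23, had a median of 10215 counts per cell. Without cluster 18 the collagen sum was 1009 CPM in E18, 1443 in E20, 5136 in E23, 2856 in E24 and 2812 in E25. In a fit added after seeing the data, without clusters 7 and 18, COL4A1 and COL4A2 were still higher in EVT (1.75 and 1.12, edgeR adjusted p = 0.000626 and 0.0262). COL17A1 was too (3.59, edgeR adjusted p = 0.00142), and 7 collagens became lower. The share of all genes called lower in that fit is not given here, so the count of 7 has no background beside it. The part of mesenchymal RNA or cells in the EVT values was not tested.

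Some collagens had their highest level in embryonic classes. COL2A1, the fibrillar collagen of notochord and cartilage, was at 154 CPM in Neural ectoderm of E22, the only embryo with at least 10 such cells, at 76.1 CPM in Mesoderm and 113 CPM in Non-neural ectoderm of that embryo and at 14.4 CPM in its Extraembryonic Mesoderm. Outside E22 its highest level was 20.9 CPM, in Endoderm of E21. Neural ectoderm of E22 was also highest in COL14A1, with 60.4 CPM, and in COL11A2, a partner chain of COL11A1, with 37.8 CPM. Of the 59 Neural ectoderm cells, 48 had a COL2A1 count, 19 a COL14A1 count and 12 a COL11A2 count, and 3 cells gave 49.8% of COL14A1 and 64.3% of COL11A2. In EXMC 4.05%, 16.2% and 0.880% of cells had a count of these genes, at a median depth of 107221 counts against 111271 in Neural ectoderm. The Neural ectoderm marker list summed to only 10.6 CPM in Neural ectoderm, with 3 of its 5 genes at 0. The Mesoderm list summed to 94.0 CPM there, beside 123 CPM in Mesoderm, and its part in these levels was not tested.

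COL9A2, a chain of the fibril-associated collagen IX, marked Endoderm, with 249 CPM in E18 and 201 in E21. Its next highest class was PS and derivative, with 10.7 and 11.3 CPM in E16-1 and E16-2. Counts were found in 71.9% of the 57 Endoderm cells and 9.67% of EXMC cells, with median depths of 84686 and 107221 counts. COL26A1, a short collagen of little known function, had its highest mean in PS and derivative, with 46.9 and 31.3 CPM in E16-1 and E16-2. Counts were found in 71.1% of the PS and derivative cells, against 5.80% of EXMC cells. Endoderm came next, with a mean of 26.4 CPM over 2 embryos, of which the higher lay above both PS and derivative embryos. COL26A1 was higher than the mean of the other classes in Mesoderm (3.86 ± 0.76), EPI (3.55 ± 0.80) and Extraembryonic Mesoderm (3.13 ± 0.58, edgeR adjusted p = 0.000345, 0.00144 and 0.000166). PS and derivative and Endoderm were outside that fit for having 2 embryos each. COL11A1 and COL21A1 were also called in Mesoderm, at 69.3, 117 and 83.2 CPM and at 60.0, 46.3 and 81.8 CPM in E18, E21 and E22 (2.59 ± 0.67 and 1.85 ± 0.61, edgeR adjusted p = 0.00514 and 0.0297). Both are genes that were higher in Extraembryonic Mesoderm than in EXMC.

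Over embryonic days no collagen gene passed the test with embryos as the unit. In all cells (9 embryos) none of 38 tested genes did, in EXMC (8 embryos) none of 30, in Extraembryonic Mesoderm (6) none of 28, in CTB (8) none of 21 and in EVT (6) none of 26, where 0% of all genes passed in all cells, EXMC, CTB and EVT and 0.0161% in Extraembryonic Mesoderm (edgeR quasi-likelihood slope of day). DESeq2 called 1, 0, 1, 1 and 2 collagen genes in the same order. At an unadjusted p under 0.05 there were 6, 3, 7, 5 and 7 collagen genes, beside 9.74%, 3.13%, 7.24%, 6.70% and 6.41% of all genes. The lowest adjusted p of a collagen gene was 0.167, of COL11A1 in EVT, with a slope of 0.87 ± 0.14 log2 per day. That slope passed with DESeq2 (0.87, DESeq2 Wald test adjusted p = 1.19e-06). It also passed without E21 and with at least 20 cells per sum (0.91 in each, edgeR adjusted p = 0.0407). With libraries as the unit it was 0.94 (edgeR adjusted p = 0.000399), and in limma-voom blocked on embryo 1.11 (adjusted p = 0.0297). Without fine clusters 7 and 18, an alternative added after seeing the data, that slope was 0.33 (adjusted p = 0.999) over the 4 embryos left, E18, E20, E23 and E24. Without cluster 18 alone it was 0.62 (adjusted p = 0.932) over 5 embryos, E25 included, and without E25 alone 0.68 (edgeR adjusted p = 1.00).

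The embryo E16-2 nevertheless stood apart in EXMC, as a description of 1 embryo. These are mostly the cells described above, since fine cluster 6 gave 184 of the 188 EXMC cells of E16-2. COL1A1 was at 3194 CPM there and at 5140 to 10521 CPM in the 7 later embryos, COL3A1 at 4976 against 12681 to 20175, COL6A1 at 92.4 against 274 to 565, COL6A2 at 297 against 613 to 1840 and COL16A1 at 14.3 against 58.5 to 126. In each of these E16-2 was lowest and the later embryos showed no order by day. COL5A2, at 605 CPM against 435 to 656, and COL18A1, at 101 CPM against 39.4 to 130.3, lay inside the later range. The mesenchyme list outside the collagens was also lowest in EXMC of E16-2, with 8185 CPM. The PS list of 5 genes was at 181 CPM there and at most 6.58 in the later embryos, and the EPI list of 4 genes at 93.2 against at most 41.9 CPM. Their part in the result was not tested. In Extraembryonic Mesoderm COL4A1 had its highest value in E20 (352 CPM) and its lowest in E25 (51.1 CPM), with a slope of -0.34 ± 0.10 log2 per day that failed the adjustment (edgeR adjusted p = 0.607).

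With libraries in place of embryos, libraries of 1 embryo count as independent. In EVT 11 of 17 collagen genes then passed with a rising slope, as did 4.27% of all genes (edgeR adjusted p under 0.05). EVT is the class in which the mesenchyme markers differed between embryos as given above.

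**Figure D5:**
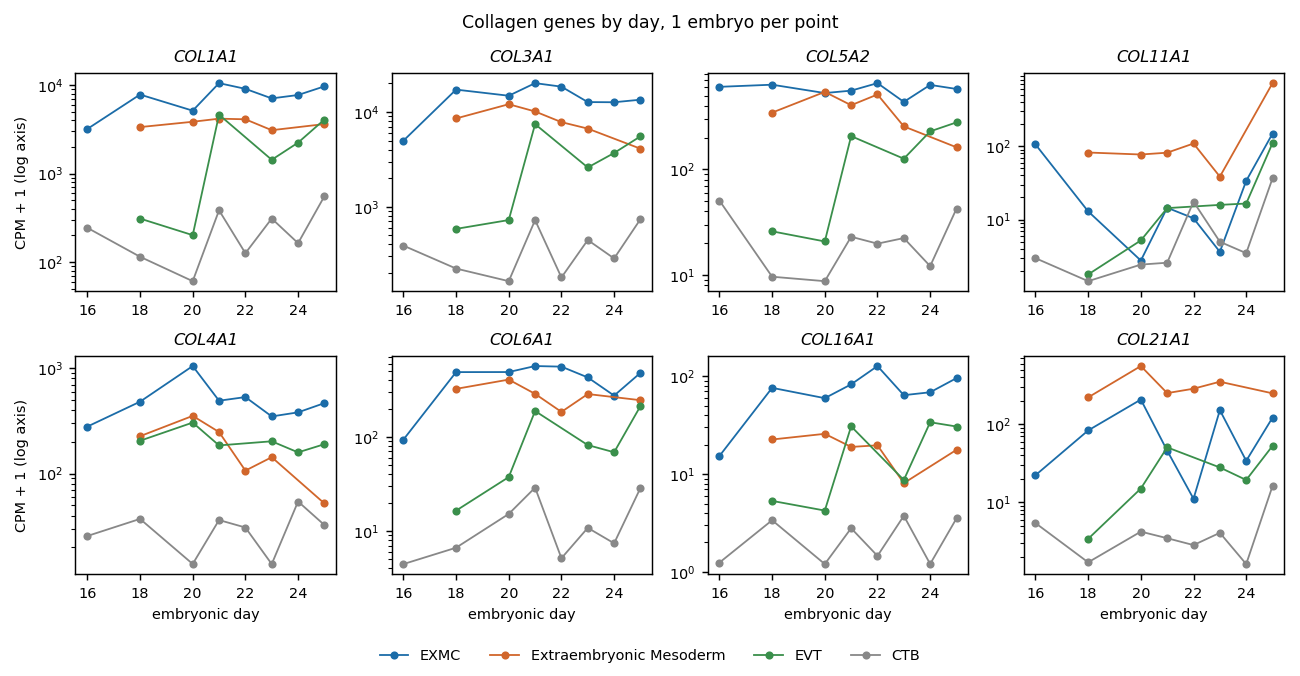
Points are CPM plus 1 on a log axis in 1 embryo by embryonic day, for 8 collagen genes in EXMC, Extraembryonic Mesoderm, EVT and CTB with at least 10 cells; at day 16 the embryo is E16-2. In EXMC the first point is low for COL1A1, COL3A1, COL6A1 and COL16A1 and not for COL5A2, and the EVT line climbs toward the mesenchyme at E21 and E25.

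Across the 26 fine clusters, levels of COL1A1, COL1A2, COL3A1, COL6A1, COL6A2, COL5A1, COL6A3, COL16A1 and COL5A2 followed the summed fibrillar collagens, with Pearson r of log2(CPM + 1) from 0.943 to 0.995, as a description of clusters that share libraries. COL11A1 (0.478), COL14A1 (0.150), COL17A1 (-0.405) and COL2A1 (-0.236) did not. The sum itself contains COL1A1, COL1A2, COL3A1, COL5A1 and COL5A2, and also COL11A1 and COL2A1. COL1A1, COL1A2 and COL3A1 make up most of it, so their r was high by construction. Of the genes that followed the sum, those outside it were COL6A1 (0.977), COL6A2 (0.972), COL6A3 (0.960) and COL16A1 (0.950). Outside the collagen lists the genes most like the sum were DCN (0.988) and LUM (0.959), proteoglycans that bind collagen fibrils, the Wnt antagonist FRZB (0.978), the collectin COLEC10 (0.969), RBMS3 (0.956), IL6ST (0.955), the matrix protein SPARC (0.953), MMP23B (0.951), CREB3L1 (0.951), a transcription factor known to act on collagen I genes, and LAMA2 (0.951). DCN and LUM were also on the mesenchyme marker list.

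All 41 genes matched a RefSeq symbol, and 6 pairs of collagen genes were direct neighbours in the assembly T2T-MFA8v1.1. Levels of COL4A1 and COL4A2 (r = 0.975), COL6A1 and COL6A2 (0.949) and COL3A1 and COL5A2 (0.917) went together over the 26 clusters. Those of COL9A1 and COL19A1 (0.297), COL6A5 and COL6A6 (0.081) and COL4A3 and COL4A4 (-0.008) did not, and the latter pairs were near the lower limit of detection, with at most 5.13 CPM in any cluster for each gene but COL6A6. COL6A3 and COL16A1, in none of these pairs, had r of 0.960 and 0.950 with the summed fibrillar collagens. Whether neighbours went together more than other pairs of collagen genes was not tested.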

How the data were processed

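The table deposited by the authors holds raw counts per gene and cell. Reads were processed with cutadapt 1.15, STAR 2.6.0a and HTSeq 0.10.0, per the submitters' processing notes. The genome build is not given in the sources used here, nor is the use of strand or whether a count is a read or a molecule. How doublets were treated is not stated either, and none were removed here. Classes, fine clusters and embryos came from the authors' annotation. Libraries 26 and 27 entered no level or test.

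Counts were summed per embryo and class (at least 10 cells) and tested with the quasi-likelihood test of edgeR 4.0.16 in R 4.3.3, after its filter on low counts and TMM scaling, two-sided, with Benjamini-Hochberg adjustment over all genes (for the class contrasts, over genes and contrasts) and a threshold of 0.05. Classes entered the class fit with at least 3 embryos. DESeq2 1.42.0 and limma 3.58.1 served as alternatives, with other filters, libraries as the unit and each embryo left out in turn. The script was tested on simulated counts. Levels are CPM of the summed counts, their intervals cover counting error only, and correlations over clusters used log2(CPM + 1).

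The collagen genes, the gene lists and the marker lists were chosen with earlier results of these data known. All 41 genes were accounted for. Those described in full were the 10 with the highest mean CPM in EXMC, those with another highest class and at least 50 CPM there, and up to 5 per direction with the smallest p in the comparison of the mesenchymal classes. Of each pathway list up to 3 genes per direction were named. Other genes with values, such as COL5A1, COL5A3, COL6A6, COL8A1, COL11A2, COL14A1, COL17A1, COL26A1 and the pathway genes that did not pass, were chosen after their values were seen.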

Additional observations from a re-analysis of the deposited data

Results flagged for a closer look

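An outlier check covered 41 groups of values. Some were named collagen genes over the 8 embryos of EXMC or the 6 of Extraembryonic Mesoderm. The others were the collagen share of counts over the 5 to 7 libraries of a day. In 4 groups, all of a gene over embryos, 1 embryo lay far from the others, where chance gives about 1 in 20 groups. COL4A1 in EXMC was at 1049 CPM in E20 and at 279 to 532 CPM in the other 7 embryos, with counts in 56 of 57 cells and 26.9% of the count from 3 cells. COL11A1 in Extraembryonic Mesoderm was at 727 CPM in E25 and at 37.5 to 108 CPM in the other 5. COL2A1 in Extraembryonic Mesoderm was at 14.4 CPM in E22 and at most 1.26 CPM in the others, and COL26A1 in EXMC was at 5.67 CPM in E16-2 and at most 1.45 CPM in the others. Collagen genes were also counted in the libraries that entered no group. Library 26 had 3.34% of its counts in collagen genes, with 56.4% of its 55 cells in EXMC, and library 27 had 0.612%, with 18.1% of its 94 cells in EXMC.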

How the results depend on the processing

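The counts of collagen genes called in EXMC, Extraembryonic Mesoderm and CTB against the other classes stayed within 1.5 times under every alternative run. In EVT the 4 calls became 10 without fine clusters 7 and 18 (added after seeing the data) and 12 with libraries as the unit. In Mesoderm the 4 calls became 9 with DESeq2. In STB the 2 calls became 1 without fine clusters 7 and 18, with libraries as the unit and with libraries 26 and 27. With each embryo left out in turn, 19 to 20 genes were called in EXMC, 15 to 20 in Extraembryonic Mesoderm, 19 to 21 in CTB, 4 to 17 in EPI, 3 to 5 in EVT, 2 to 6 in Mesoderm and 0 to 2 in STB. The lowest EPI counts came without E18 (4) and E21 (6), the lowest Mesoderm counts without E18 or E21 (2 each), and the lowest STB counts without E20 or E23 (0 each). COL26A1 in STB went from -3.40 to 1.23 log2 with libraries as the unit (adjusted p = 0.998). The cause was not tested for these. The 12 genes higher in EXMC than in Extraembryonic Mesoderm became 7 with at least 20 cells per sum, which leaves 4 embryos, and 9 to 11 without 1 embryo, and the 3 lower became 2 to 3. Over named genes, 254 of 297 checks of that comparison kept direction and side of the threshold and 43 only the direction.

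For day slopes, the 0 calls in all cells became 1 with DESeq2, 13 with libraries as the unit, 5 in limma-voom, which takes libraries and blocks on embryo, and 4 with the library code as a term. In EXMC they became 1, 2 and 4 under the last 3 of these. In Extraembryonic Mesoderm they became 1 with DESeq2, 3 with libraries and 1 in limma-voom, and in CTB 1 with DESeq2, 5 with libraries and 1 with the library code. In EVT they became 2 with DESeq2, 1 with at least 20 cells per sum, 11 with libraries, 8 in limma-voom and 0 to 1 without 1 embryo (1 without E21). Libraries of 1 embryo are not independent, so counts by library describe libraries.

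Over all genes, the 520 calls between EXMC and Extraembryonic Mesoderm became 1128 with DESeq2, 325 with at least 20 cells, 325 without E18, 340 without E21 and 857 without the filter on low counts. The day slopes called 0 genes in all cells, 196 with DESeq2, 2435 with libraries, 197 in limma-voom and 1027 with the library code. In the same order EXMC went from 0 to 17, 190, 126 and 536, Extraembryonic Mesoderm from 2 to 76, 248, 93 and 55, CTB from 0 to 62, 363, 12 and 85 and EVT from 0 to 107, 677, 230 and 56. For 6 libraries used, those of E23, the labels and the names of the count columns give different codes. With the 7 codes of the column names, an alternative added after seeing the data, 5 collagen genes were called in all cells, 4 in EXMC, 0 in Extraembryonic Mesoderm, 1 in CTB and 0 in EVT, and 1338, 721, 55, 85 and 56 of all genes in the same order. With at least 20 cells Extraembryonic Mesoderm gave 1 and EVT 10, and without the filter they gave 11 and 3. EPI could not be fitted with libraries as the unit. Days could not be paired, because the labels number libraries and no 2 days share a number, while the class comparisons were blocked by embryo. Depth limits the 18 genes under 10 CPM in their highest class, some of which were called.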
